A study of Rattus norvegicus with 36 samples.

Results

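Messenger RNA of the nucleus accumbens was compared between rats that expressed a preference for a cocaine-paired compartment (CPPE) and rats that had received saline. Groups were taken from the phenotype given for each animal, which placed 24 of 36 libraries here, 4 technical replicates for each of 6 of the 9 rats. All animals were Sprague-Dawley rats of 8 weeks. The 3 CPPE rats, also called dependent in the labels, received 4 cocaine injections on separate days, 15 days of withdrawal and 1 more injection, a cocaine challenge of 5 mg/kg given intraperitoneally. The 3 Saline rats received physiological serum on the same schedule. Place preference was measured for 18 min right after the last injection, and the series text adds an extinction phase of 12 days. The nCPPE rats were 3 animals with the same cocaine treatment and no expressed preference. They entered the fits through the shared estimate of spread, the choice of genes tested and the scaling of the libraries. Below they are also used as a reference outside the comparison.

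The nucleus accumbens is the ventral part of the striatum and receives dense dopamine input from the ventral tegmental area. Most of its neurons are GABAergic medium spiny neurons, which carry either D1 or D2 dopamine receptors, together with a smaller number of interneurons, glia and vascular cells. Cocaine blocks dopamine reuptake, and in conditioned place preference an animal learns to link a compartment with the drug. A drug injection given after extinction can bring that preference back, which is known as reinstatement. The comparison addresses what differs in this tissue between animals in which the preference was expressed and animals that never had cocaine. Because each sample is bulk tissue, fewer cells of a type and less RNA per cell cannot be told apart.

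Some limits of the material touch every value below. The sources used here do not give the dose at conditioning, the sex of the animals or the criterion for an expressed preference. The labels name the nucleus accumbens for every library, while their extraction text also speaks of the caudate putamen. Cocaine exposure, the acute challenge and the expressed preference all separate the groups at once, so they cannot be told apart in this comparison. The files list Ensembl gene identifiers without names, and 0 of 32402 identifiers could be paired with a symbol in the RefSeq table used (assembly GRCr8). For that reason the tissue was not checked against markers of spiny neurons or of neighbouring regions, and genes are given by identifier, without coordinates or sequences.

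Summed over technical replicates, the CPPE rats had 29654851 to 39067715 counts and the Saline rats 27724289 to 29142265. Within a rat, the 4 technical replicates agreed within sampling noise, so each rat counted as 1 sample. Saline 2 stood apart from all other rats before any group comparison. Over 13757 genes averaging 1 CPM or more in the 6 rats (CPM is the count scaled to a common library total), it lay more than 2-fold from Saline 1 in 3722 genes and from Saline 3 in 3975, while Saline 1 and Saline 3 were that far apart in 81. Each result is therefore given with all Saline rats and again without Saline 2.

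Counted as genes over 2-fold apart, the distance of CPPE rats from Saline 1 and Saline 3 fell inside the range found within the CPPE group. The 6 pairs of a CPPE rat with Saline 1 or Saline 3 were over 2-fold apart in 88 (CPPE 2 and Saline 1) to 136 genes (CPPE 1 and Saline 1). Within the CPPE group the numbers were 60 for CPPE 1 and CPPE 3, 159 for CPPE 2 and CPPE 3, and 163 for CPPE 1 and CPPE 2. The median absolute log2 difference per gene was 0.104 to 0.159 between the groups and 0.104 to 0.139 within CPPE. Pairs of a CPPE rat with Saline 2 were over 2-fold apart in 3323 to 3565 genes, fewer than the pairs of Saline 2 with its own group. These numbers describe pairs that share rats and were not tested.

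**Figure D1:**
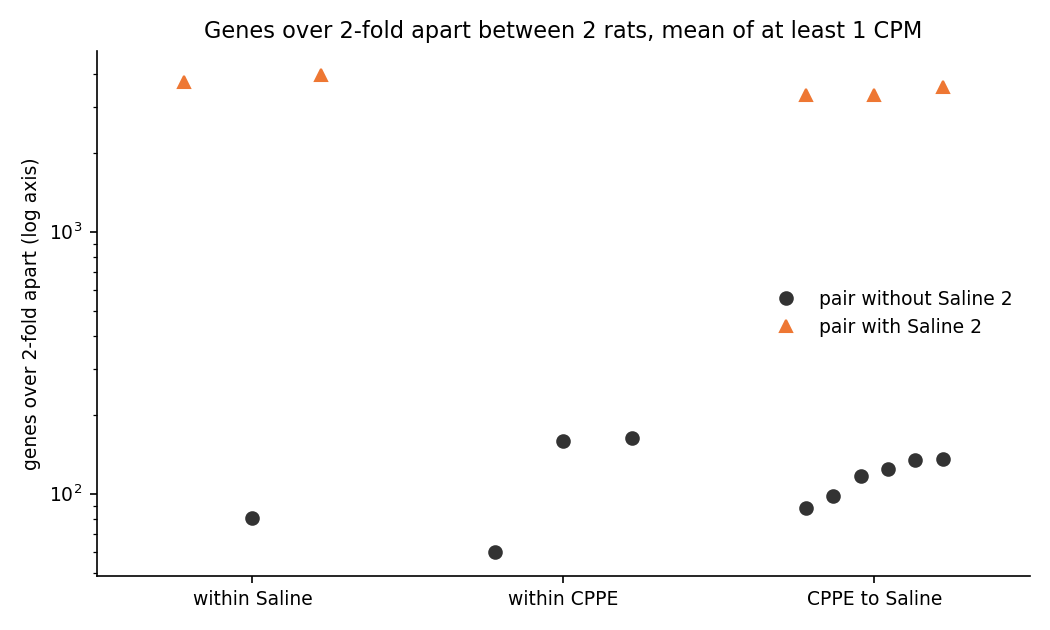
Number of genes more than 2-fold apart (log axis) for each pair of rats, over genes averaging 1 CPM or more. Circles are pairs without Saline 2 and triangles are pairs with it. The 6 CPPE to Saline pairs without Saline 2 (88 to 136 genes) fall inside the range of the CPPE pairs (60 to 163), and every pair with Saline 2 is at 3323 or more.

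With all Saline rats, no gene was called changed between CPPE and Saline. edgeR's quasi-likelihood test gave 0 of 15555 genes an adjusted p below 0.05 (Benjamini-Hochberg, smallest adjusted p 0.882). DESeq2 and limma-voom also called 0. At an unadjusted p below 0.05 edgeR found 74 genes higher in CPPE (0.476%) and 65 lower (0.418%), 139 in all (0.894%), and limma-voom 1154 (7.42%). DESeq2, which was run on more genes of low count, found 217 of 22389 (0.969%). Fitted differences of over 2-fold were found for 64 genes higher (0.411%) and 53 lower (0.341%), 0.752% together. The 3 CPPE rats lay above all 3 Saline rats in 455 genes (2.93%) and below them in 435 (2.8%), 5.72% together. No listed gene had at least 3 counts in every rat of one group and 0 in every rat of the other. Without Saline 2 there were 2 such genes in each direction, not named because their identifiers carry no symbol.

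Leaving out Saline 2 lowered the spread, and more genes then had a small p, but none passed edgeR's threshold. The biological coefficient of variation, edgeR's measure of spread between animals, was 26.2% with Saline 2 and 11.8% without it. Without this rat 15750 genes were tested, and edgeR called 0 (lowest adjusted p 0.825) and limma-voom 0. At an unadjusted p below 0.05 there were 929 by edgeR (5.9%) and 1340 by limma-voom (8.51%). By DESeq2 there were 828 of the 22270 genes to which it gave a p (3.72%). Of the 929 by edgeR, 349 were higher in CPPE (2.22%) and 580 lower (3.68%). Of the 139 genes at that level with all rats, 73 were also among the 929, which is 52.5% of the former and 7.86% of the latter. All CPPE rats lay above Saline 1 and Saline 3 in 1857 genes (11.8%) and below them in 2115 (13.4%), 25.2% together. The median absolute log2 fold change over all genes was 0.195 with Saline 2 and 0.106 without it.

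Large fitted differences lay almost wholly among genes of low level. Without Saline 2, 239 genes differed by over 2-fold (1.52%), 172 higher in CPPE (1.09%) and 67 lower (0.425%), and 162 of them had a mean under 1 CPM. Only 1 of the 239 had a mean over 10 CPM. Among the 77 at or above 1 CPM, 63 were higher in CPPE and 14 lower. CPPE 3 had the highest level in 50 of those 63, and 40 of the 63 stayed over 2-fold in the fit without CPPE 3. In 19 of the 63 all CPPE rats were above Saline 1 and Saline 3, and in 9 of the 14 all were below. Over all genes tested, 11.8% lay above and 13.4% below in this way. The 63 and the 14 were chosen for a large difference on this same contrast, so the lack of overlap is no added support. Of the 239, 64 were also over 2-fold with all Saline rats, which is 26.8% of the 239 and 54.7% of the 117 found there.

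How firmly a difference can be bounded depended on the level of the gene and on Saline 2. For genes between 10 and 100 CPM, 7722 in number, the 95% interval of the fold change excluded 1.5-fold in either direction for 91.6% without Saline 2 and for 43.3% with it. Between 100 and 1000 CPM the shares were 96.9% and 45.5% of 2065 genes. In the class from 1 to 10 CPM they were 36.4% and 15.7% of 3910 genes, and under 1 CPM they were 0.1% and 0.111%, so that in nearly all genes of the lowest class the interval was too wide to leave 1.5-fold outside it. A 2-fold difference was excluded for 98.9% of genes between 10 and 100 CPM without Saline 2. The intervals use a spread shared between groups, and Saline 2, which lies apart from its group, departs from that assumption. With Saline 2 in the fit, 0.894% of all genes had an edgeR unadjusted p below 0.05. Without Saline 2 the Saline group was left with 2 rats, so the shared spread came mostly from the cocaine groups. Whether the intervals of either fit have the right width was not tested.

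**Figure D2:**
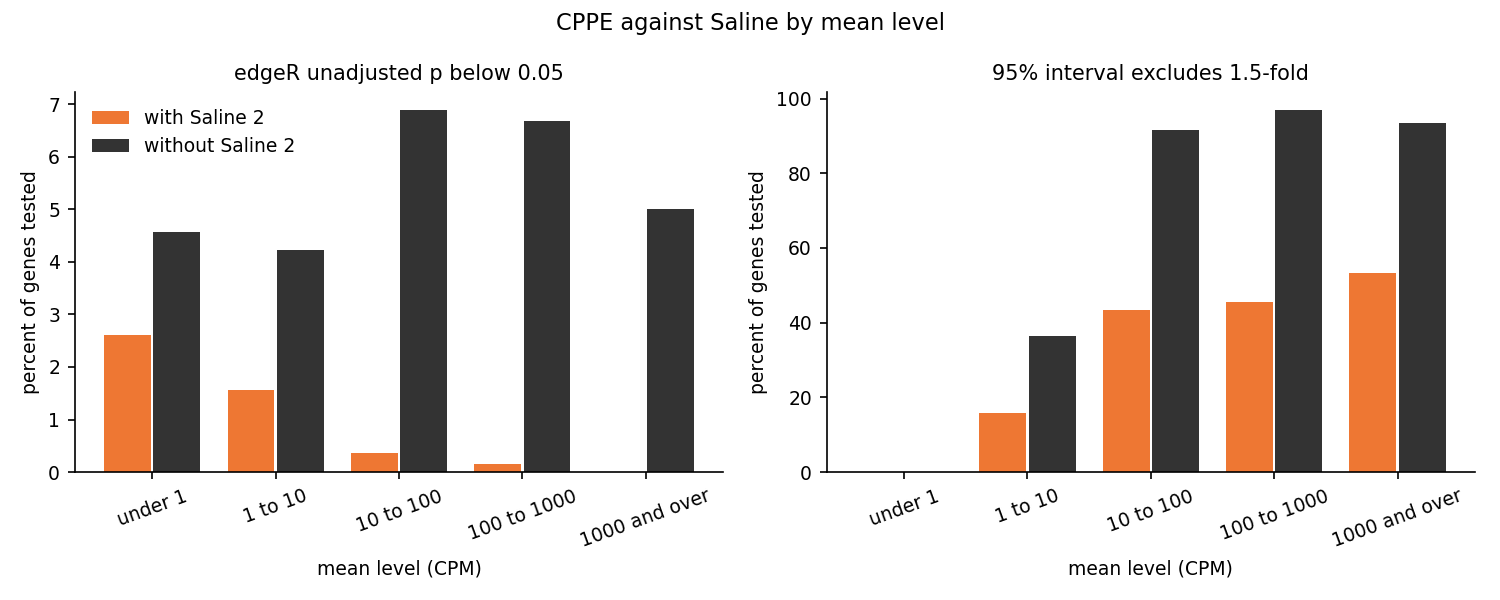
Percent of the genes tested in 5 classes of mean level (CPM over the CPPE and Saline rats), with Saline 2 (orange) and without it (dark). On the left, genes with an edgeR unadjusted p below 0.05 make up 2.61% of the lowest class and 0.145% of the class from 100 to 1000 CPM with Saline 2, and 4.22% to 6.89% in every class without it. On the right, genes whose 95% interval excludes a 1.5-fold difference.

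The identifiers with the smallest p in each direction are given rat by rat, as descriptions, since they were chosen on this contrast. They averaged 1 CPM or more, had no overlap between the CPPE and the Saline rats, and were ranked by p in the fit without Saline 2. ENSRNOG00000037673 was at 8.79, 8.25 and 6.06 CPM in CPPE 1, 2 and 3. In Saline 1, 2 and 3 it was at 0.588, 6.06 and 2.12 CPM. Saline 1 and Saline 3 were far below every CPPE rat, while Saline 2 lay within 0.00298 CPM of CPPE 3. Saline 1 had only 17 counts and Saline 3 only 59, so the levels of these rats rest on few reads. The log2 difference was 1.40 ± 0.63 (SE) with all Saline rats and 2.51 ± 0.43 without Saline 2. It was 2.81 by limma-voom with all Saline rats, and without Saline 2 it was 1.86 with Saline 3 as the only Saline rat and 3.71 with Saline 1 as the only one. By edgeR the adjusted p of this gene was 0.882 and 0.825, and by DESeq2 1.0 and 1.73e-06. The nCPPE rats had 4.53 to 6.72 CPM of it, also above Saline 1 and Saline 3.

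ENSRNOG00000061943 was at 3.99, 4.29 and 3.06 CPM in the CPPE rats and at 1.83, 2.15 and 1.01 CPM in the Saline rats. The groups were 0.912 CPM apart, and Saline 2 was the highest of the Saline rats here too. Its log2 difference was 1.18 ± 0.31 (SE) with all Saline rats and 1.41 ± 0.31 without Saline 2, where DESeq2 gave an adjusted p of 0.0436 and edgeR one of 0.825. With 28 to 169 counts per rat this gene rests on few reads. The nCPPE rats had 2.29 to 3.49 CPM, overlapped the CPPE rats and also lay above every Saline rat.

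ENSRNOG00000020456 was lower in CPPE, at 35.2, 32.6 and 35.2 CPM against 44.2, 55.4 and 41.3 CPM in the Saline rats. The CPPE rats lay close together, at 34.3 ± 1.51 CPM (SD, n = 3), and all Saline rats were above them. The log2 difference was -0.45 ± 0.13 (SE) with all Saline rats and -0.32 ± 0.07 without Saline 2. edgeR gave an adjusted p of 0.882 with all Saline rats and 0.825 without Saline 2, and DESeq2 gave 1.0 and 0.244. The nCPPE rats, at 34.7 ± 1.16 CPM (SD, n = 3), had the level of the CPPE rats.

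ENSRNOG00000030530 was at 1.32, 1.22 and 1.21 CPM in the CPPE rats and at 2.25, 2.90 and 2.30 CPM in the Saline rats. It was the least abundant of the 4, with 37 to 81 counts per rat. The groups were 0.929 CPM apart, and the log2 difference was -0.99 ± 0.23 (SE) with all Saline rats and -0.87 ± 0.23 without Saline 2. Neither tool called it (edgeR adjusted p 0.882 and 0.825, DESeq2 1.0 and 0.72). The nCPPE rats had 1.43 to 2.11 CPM, between the CPPE and the Saline rats.

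**Figure D3:**
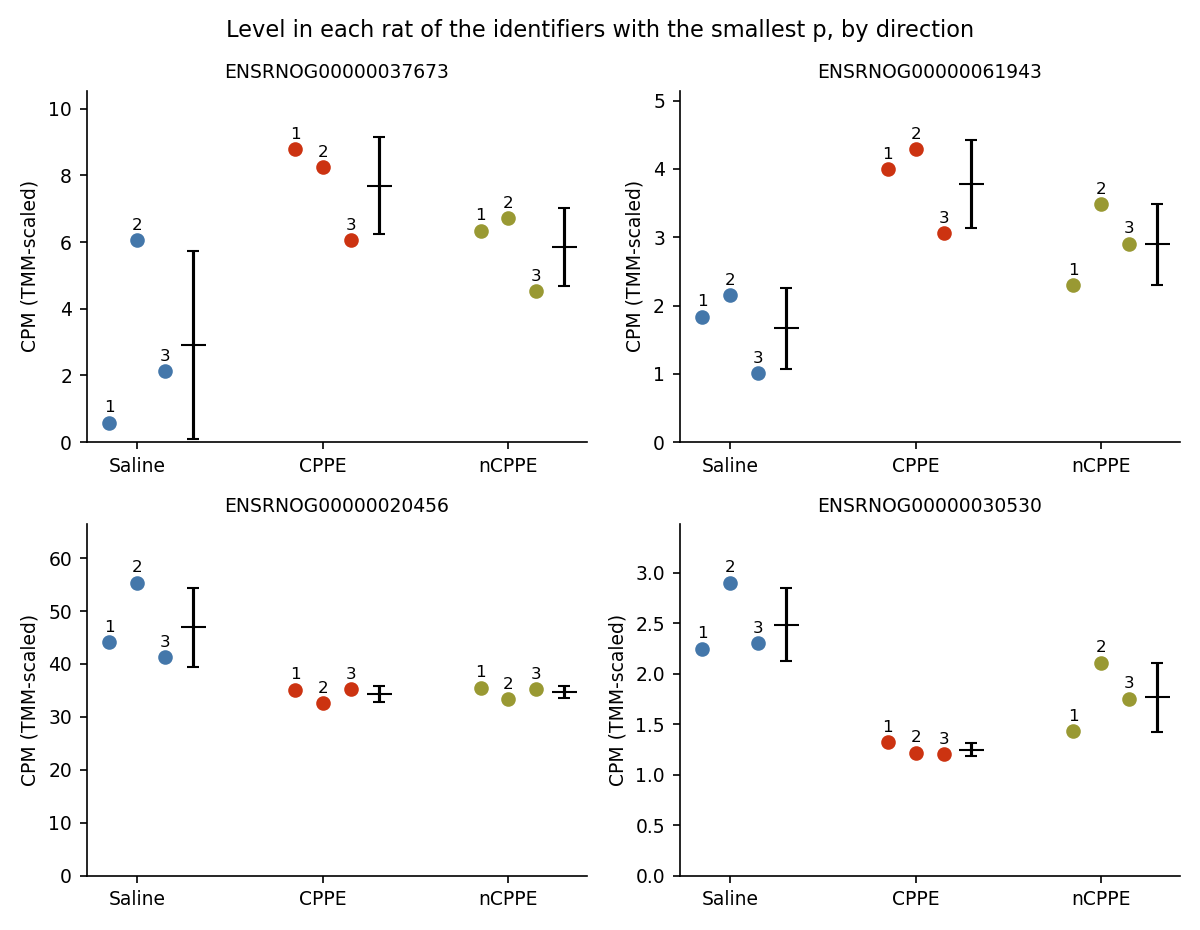
Level (CPM on TMM-scaled library sizes) of 4 identifiers in each rat, with the rat's number above its point. Bars are mean and SD of 3 rats. In ENSRNOG00000037673 the Saline 2 point, 6.06 CPM, sits level with CPPE 3, and in ENSRNOG00000020456 the nCPPE rats sit level with the CPPE rats.

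Without Saline 2, DESeq2 called 12 of the 18384 genes it gave an adjusted p (0.0653%), 5 higher in CPPE (0.0272%) and 7 lower (0.0381%). edgeR gave the same 12 unadjusted p-values of 0.000208 to 0.00122. In every one of them the CPPE rats did not overlap Saline 1 and Saline 3, beside 25.2% of all genes tested by edgeR. The 12 were chosen on this same contrast, so the lack of overlap is no added support. In 2 of them, ENSRNOG00000037673 and ENSRNOG00000061943, the CPPE rats also did not overlap Saline 2. With all Saline rats that share was 5.72% over all genes. In ENSRNOG00000037673 the gap to Saline 2 was only 0.00298 CPM. The 7 lower calls were genes of moderate level, with CPPE means of 18.1 to 229 CPM and log2 differences of -0.60 to -0.29. The calls depended on single rats. Without CPPE 3 as well, DESeq2 called 53 genes, 10 of them among the 12. Without CPPE 1 as well it called 12, with 5 shared, and without CPPE 2 as well 11, with 5 shared. Without Saline 1 as well it called 2, with 1 shared, and without Saline 3 as well 12, with 3 shared. The last 2 fits had 1 Saline rat, which is assumed to vary like the other groups.

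In 8 of the 12 genes that DESeq2 called without Saline 2, among them all 7 lower ones, Saline 2 itself lay over 2-fold off in the direction of the CPPE difference. To keep the measures apart, Saline 2 was set against the mean of the nCPPE rats, so that no rat was used in both differences. All 7 lower calls were lower in Saline 2 as well, at 0.11 to 0.357 of the nCPPE mean. In the lower call where this gap was widest, Saline 1 and Saline 3 had 102 and 92.0 CPM, the CPPE rats 66.5, 54.3 and 70.9 CPM, the nCPPE rats 69.5, 57.5 and 65.0 CPM, and Saline 2 had 7.06 CPM. Of the 5 higher calls, 4 were higher in Saline 2 than in the nCPPE mean, though only 1 of them by over 2-fold, and ENSRNOG00000037673 was nearly level, at 1.03 of that mean. ENSRNOG00000061943 lay on the other side, at 0.743 of it. In the gene over 2-fold higher Saline 1 and Saline 3 had 27.9 and 31.5 CPM, and the CPPE rats 53.1, 52.7 and 46.3 CPM. Here the nCPPE rats had 32.0, 42.3 and 29.8 CPM, below every CPPE rat, and Saline 2 had 77.9 CPM. With Saline 2 in the fit, the edgeR log2 difference of 4 of the 12 calls changed sign. Identifiers of these 2 examples are not printed, since the files carry no names for them.

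Genes with a small p were read in the same way. Among 528 genes lower in CPPE at an unadjusted p below 0.05 without Saline 2 and averaging 1 CPM or more, Saline 2 was below the nCPPE mean in 498 (94.3%), and by over 2-fold in 358 (67.8%). Over all 13757 genes of that level the shares were 48.9% and 16.6%. Among 310 genes higher in CPPE, Saline 2 was above the nCPPE mean in 253 (81.6%), beside 51.1% of all genes, and by over 2-fold in 70 (22.6%), beside 6.31%. Each nCPPE rat was set against the mean of the other nCPPE rats, which are its own group. These differences cancel out within each gene, so they cannot all lie on the same side. The shares of the nCPPE rats are therefore no control for those of Saline 2. For the lower genes the share on the CPPE side was 34.8%, 64.4% and 42.6% in nCPPE 1, 2 and 3, and for the higher genes it was 51.9%, 31.3% and 66.5%. The part that the difference seen in Saline 2 has in the comparison was not tested. These shares are descriptions over genes, which are not independent replicates. With Saline 1 as the only Saline rat, the share for the lower genes was 88.3% and that for the higher genes 55.6%.

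**Figure D4:**
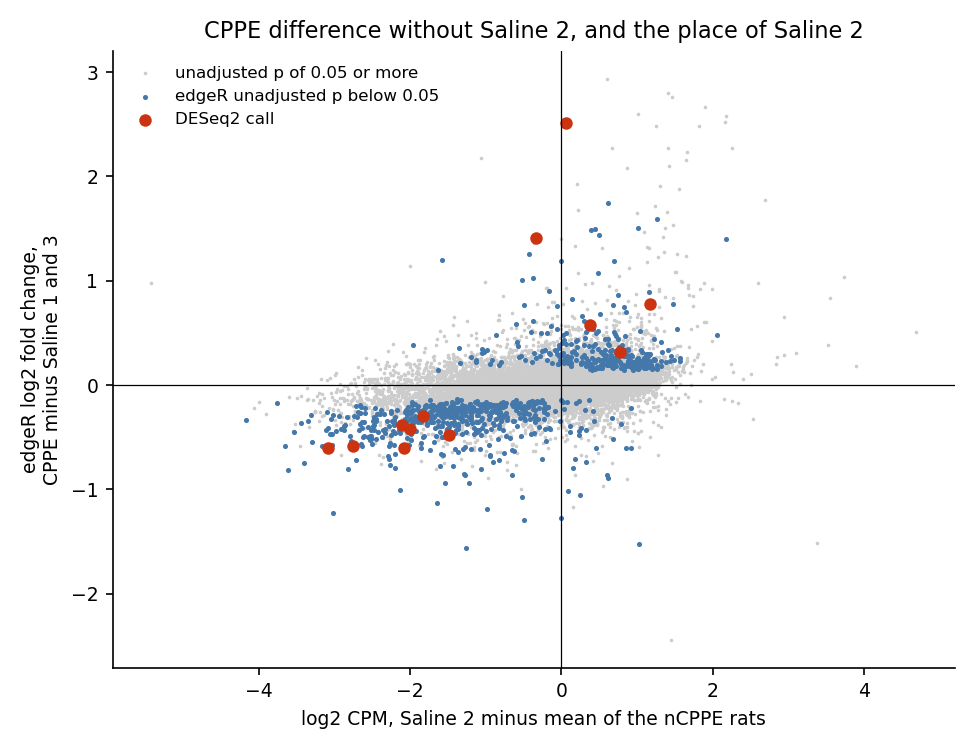
Each point is a gene averaging 1 CPM or more. The x axis is log2 CPM in Saline 2 minus the mean of the nCPPE rats, and the y axis is the edgeR log2 fold change of CPPE against Saline 1 and Saline 3. Blue points have an edgeR unadjusted p below 0.05 and red points are the 12 DESeq2 calls. Of the blue and red points below 0 on the y axis, 498 of 528 are also left of 0.

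Read the other way, genes set by Saline 2 separated the remaining Saline rats from the CPPE rats by a small step. Over the 2281 genes more than 2-fold lower in Saline 2 than in the nCPPE mean, the median log2 difference from the nCPPE mean was 0.124 in Saline 1 and 0.145 in Saline 3, and 0.00728, 0.0197 and 0.0623 in CPPE 1, 2 and 3. Both Saline rats were above all CPPE rats. Over the 868 genes more than 2-fold higher in Saline 2, the medians were -0.0942 and -0.134 in Saline 1 and Saline 3, and -0.00892, 0.00185 and -0.00501 in CPPE 1, 2 and 3. The 2 remaining Saline rats thus lay on the far side of the CPPE rats from Saline 2 in both sets, and over all genes the medians of the 5 rats were between -0.00482 and 0.00372. Of the 2281 genes, 358 (15.7%) were lower in CPPE at an unadjusted p below 0.05 and 11 (0.482%) higher. Of the 868 genes, 70 (8.06%) were higher and 1 (0.115%) was lower. The 358 and the 70 are the same genes as those counted above, here as shares of other totals. They are no second observation. Over all 13757 genes of that level the shares were 3.84% lower and 2.25% higher. No test was made of these medians, and the nCPPE rats, which set the baseline, ranged from -0.102 (nCPPE 2) to 0.0561 (nCPPE 1) in the set that was low in Saline 2.

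**Figure D5:**
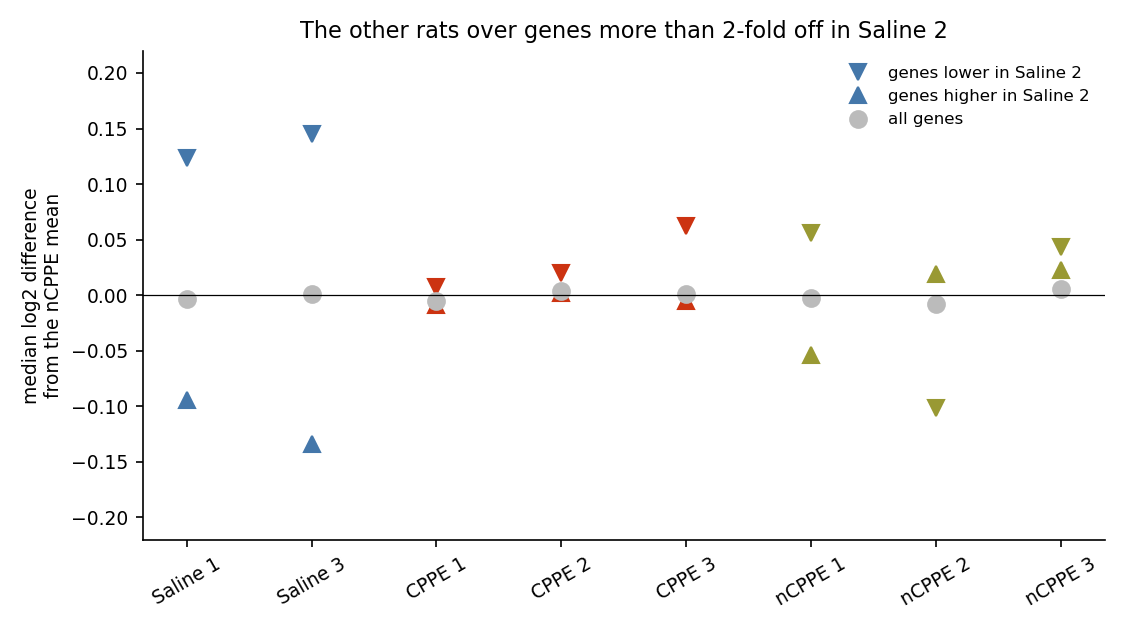
Median log2 difference from the nCPPE mean in each rat other than Saline 2, over 2281 genes more than 2-fold lower in Saline 2 (triangles pointing down), 868 genes more than 2-fold higher in it (triangles pointing up) and all genes averaging 1 CPM or more (grey circles). Saline 2 is not drawn. Its medians are -1.51 and 1.14. Saline 1 and Saline 3 lie at 0.124 and 0.145 for the first set, above the 3 CPPE rats.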

How the data were processed

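Libraries were strand-specific (TruSeq Stranded mRNA) and made from the polyadenylated part of 300 ng total RNA, per the labels' protocols. The submitters' processing notes name bcl2fastq 2.18.0.12, STAR and HTSeq 0.5.3. The sources used here do not name a genome build, an annotation or whether counting used the strand, so overlapping genes and near-identical copies carry uncertain counts. The authors deposited 36 files of raw counts per gene, without a row for unassigned reads. Counts were summed by rat. Between technical replicates, chi-square per degree of freedom was 1.00 to 1.02 for genes of 40 counts or more.

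edgeR 4.0.16 (R 4.3.3) was fitted with group alone over 9 rats, and over 8 without Saline 2, after filterByExpr and TMM scaling, with an adjusted p below 0.05 as the threshold. Standard errors are the log2 fold change divided by the root of F. DESeq2 1.42.0, limma 3.58.1 (voom with quality weights), RLE size factors, no filter, the CPPE and Saline rats alone, a replicate block and leaving out each rat were alternatives. The edgeR procedure was tested on simulated data. Levels on the log2 scale are log2(CPM + 0.5). Identifiers named are the 2 in each direction with the smallest p without Saline 2, a mean of at least 1 CPM and no overlap. The rule also asked for all DESeq2 calls and list members, but without names 2 in each direction was its limit. The 33 gene lists could not be matched and give no value. Groups, lists and tests were chosen with earlier results of these data known, and the comparison of Saline 2 with the nCPPE rats after the data were seen.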

Additional observations from a re-analysis of the deposited data

How the results depend on the processing

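edgeR called 0 genes with all Saline rats and 0 without Saline 2 under every alternative run with edgeR or limma-voom, and DESeq2 called 0 with all Saline rats and 12 without Saline 2. DESeq2 on the CPPE and Saline rats alone without Saline 2, an alternative chosen after seeing the data, called 29, of which 11 were among the 12. When 1 more rat was left out it called 2 to 53. The cause was not tested. The number of genes at an unadjusted p below 0.05, 139 with all Saline rats, was 217 with DESeq2, 1154 with limma-voom, 247 without the low-count filter, 85 with the CPPE and Saline rats alone, and 109 to 929 when 1 rat was left out, the highest without Saline 2, with 488 without Saline 1 and 832 without Saline 3. Without Saline 2 it was 929, and 499 to 1117 when 1 more rat was left out, with 499 without Saline 1 and 577 without Saline 3. Deviations of same-numbered CPPE and Saline rats from their group means had r = -0.0759, -0.0293 and 0.0266 across genes. CPPE 3 alone correlated best with its own number. The Saline mean included Saline 2, which weighs heavily on the deviations of all Saline rats. These values therefore cannot show whether the numbers pair the rats. The fit with the replicate block called 0 genes either way, with 123 and 565 at an unadjusted p below 0.05. All 92 values of the 4 named identifiers under the alternatives kept their direction. The identifiers were chosen for no overlap between the CPPE and the Saline rats, so this is no added support. The log2 difference of ENSRNOG00000037673 ranged from 0.92 to 2.81 under the alternatives to the fit with all Saline rats. Without Saline 2 it ranged from 1.86 to 3.71. Of the 92 values 2 passed the threshold, both by DESeq2 without Saline 2. With the genes chosen by each alternative fit without Saline 2, Saline 2 lay on the CPPE side in 88.3% to 95.3% of the lower genes and 55.6% to 83.4% of the higher ones. Intervals were widest for genes under 1 CPM, and depth was not varied.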
